A study of Homo sapiens with 9 samples.

Results

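The ZNF genes are the largest named set of human genes that encode proteins with C2H2 zinc fingers, short folds held together by a zinc ion, most of which read DNA sequence in tandem arrays. They were taken from the deposited gene list as the rows whose Ensembl identifier belongs to a protein-coding gene with a symbol of ZNF, a number and optional capital letters. The rule found 220 of the 9588 listed genes, 108 of them on chromosome 19 and 112 elsewhere. The other 7 listed genes with a ZNF symbol, 6 antisense genes and 1 pseudogene, were left out. The choice used no measured value.

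The study performed ChIP-seq for histone H2B ubiquitylated at lysine 120 (ubH2B) in RPE1 cells, an hTERT-immortalized line of human retinal pigment epithelium. By the labels the cells carried an inducible Cas9 (iCas9) and a double knockout given as p53/puro-dKO, so that mock and irradiated cells share this background. UV-C was given at 9 J/m2, and the 9 libraries comprise 2 of mock cells, 2 of cells left to recover for 3 h, 4 of cells left for 24 h and 1 input of mock cells. The gene list holds no value of any of these libraries. Its single measurement is the BrU density, the read density of RNA labelled with bromouridine (BrU) during its synthesis, counted in WT cells without UV, over the initial 3 kb of the gene, as part of an earlier BrU-seq experiment. This is the authors' value for each gene, without replicates, and the list does not state how many libraries it rests on. Every value below is therefore given without an error, no difference was tested, and the depth behind the values is unknown.

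Many ZNF proteins carry a KRAB domain, which recruits TRIM28 (KAP1) and through it the histone methyltransferase SETDB1, and KRAB zinc finger proteins are known for silencing retrotransposons. Others carry a SCAN domain, which pairs such proteins with each other, or neither domain. Most of their genes arose by tandem duplication and stand in clusters, above all on chromosome 19.

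BrU density was above 0 in 199 of the 220 ZNF genes (90.5%), and 152 (69.1%) were among the 3000 highest genes of the list, the set from which the study drew subsets by gene size for its profiles. Of these 152 genes, 9 were at least 50 kb long. The shares above 0 and among the 3000 were 58.7% and 31.6% of all 9501 listed genes with a value, and 70.0% and 45.7% of the listed protein-coding genes. The density is given in the units of the list, in which each of the 5579 values above 0 lay within 0.05 of a whole multiple of the smallest, 0.0433. All ZNF genes were longer than the 3 kb window, so that their densities refer to the same length. The check of the cell type was limited by the list, which holds 7 of 12 retinal pigment epithelium markers. Of these, the eye transcription factors OTX2 (217.1) and PAX6 (137.2) were among the 3000, whereas MITF was at 13.3, the visual cycle genes RLBP1, LRAT and RPE65 were at 1.26, 0.997 and 0.26, and TTR was listed at 0.

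ZNF genes were rarely listed at 0, and most had intermediate densities. The median of the 199 genes above 0 was 36.1, with an interquartile range of 16.9 to 66.8, beside 36.5 (4.25 to 86.0) for the 4015 other protein-coding genes above 0. Densities from 10 to 100 were found for 139 ZNF genes (63.2%), compared with 33.8% of the other protein-coding genes and 25.1% of all listed genes with a value. A density of 100 was exceeded by 25 ZNF genes (11.4%), 13.9% of the other protein-coding genes and 9.03% of all listed genes, or by 12.6%, 20.0% and 15.4% when genes at 0 were left out. None of the ZNF genes exceeded 300, a level passed by 125 other protein-coding genes. ZNF genes made up 2.32% of the listed genes with a value. They were 0 of the 100 highest genes, 3 of the 250 highest (1.20%), 12 of the 500 highest (2.40%), 33 of the 1000 highest (3.30%) and 89 of the 2000 highest (4.45%). These ranks hold mostly protein-coding genes: 239 of the 250, 480 of the 500, 961 of the 1000 and 1904 of the 2000 highest. Among all listed genes with a value, 63.4% were protein-coding, 6020 genes with 220 ZNF genes among them. On a log2(density + 1) scale the ZNF genes were higher than the other protein-coding genes by a mean of 1.29, but by 0.36 when genes at 0 were left out of both and by 0.50 with a pseudocount of 10.

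The 10 highest ZNF genes belong to different structural classes. ZNF24, a SCAN domain factor with 4 zinc fingers, was the highest, at 290.4 (rank 138 of the list), and lies on the minus strand of chromosome 18 from 35332227 to 35344420. ZNF264, a KRAB gene with 13 fingers on chromosome 19 (57191500 to 57222846, plus strand), followed at 238.8, and ZNF622, a factor of 60S ribosome maturation with 3 fingers on chromosome 5, at 213.8. The KRAB genes ZNF431 (191.5), ZNF267 (190.7) and ZNF776 (183.5) came next. They were followed by ZNF330, which encodes a nucleolar protein without a match to the C2H2 finger pattern (180.1), and ZNF644, a partner of the H3K9 methyltransferases G9a and GLP (173.9). The last were ZNF146, which consists almost entirely of 10 fingers (170.9), and ZNF121 (149.8). An annotated gene on the opposite strand, ZNF565, overlaps the first 3 kb of ZNF146. Of these 10 genes, 5 lie on chromosome 19 and 4 match the KRAB pattern.

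Around the limit of the 3000 genes, ZNF347 (15.5), ZNF681 (15.3) and ZNF860 (15.2) were just inside, and ZNF331, an imprinted gene (15.0), ZNF396 (14.1) and ZNF316 (13.3) just outside. Of 41 ZNF genes selected for their known functions, 20 are in the list and 17 of these were among the 3000. Across all 220 ZNF genes this share was 69.1%. Among the KRAB genes with known targets, ZNF91, a repressor of SVA retrotransposons, was at 118.6, ZNF274, which brings SETDB1 to the 3' ends of ZNF genes, at 63.4, and ZNF445, a guardian of imprinted loci, at 51.1. ZNF675 was at 94.8 and ZNF382 at 19.4. Outside the KRAB class, the small protein gene ZNF706 was at 98.9, ZNF703, a breast cancer oncogene, at 89.6, ZNF131 at 81.9, ZNF35 at 72.6, ZNF367 at 66.5 and ZNF365, which encodes a centrosomal protein, at 54.9. ZNF469, mutated in brittle cornea syndrome, was at 7.71. ZNF750, a regulator of epidermal differentiation, was listed at 0.

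The 21 ZNF genes listed at 0 include genes known from other cell types, such as ZNF683 (Hobit) of resident lymphocytes. They also include 16 of the 149 genes with the KRAB pattern, beside 5 of the 71 without it, and the shares above 0 were 89.3% and 93.0%. Among the 16 is ZNF729, which has 34 fingers, the most of any ZNF gene in the list. By position, 8 of the 21 lie on chromosome 19 and 4 on chromosome 7. Without counts, a value of 0 cannot be told apart from a density below the smallest step.

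On chromosome 19, 100 of 108 ZNF genes (92.6%) were above 0 and 70.4% among the 3000, compared with 99 of 112 (88.4%) and 67.9% elsewhere. Their median was lower among the genes above 0, at 29.6 (interquartile range 15.4 to 59.7) compared with 44.5 (20.2 to 72.2). The mean on the log2(density + 1) scale was 4.38 ± 2.13 (SD across the 108 genes) and 4.47 ± 2.38 (SD across the 112 genes), a difference of -0.086 that is small beside the spread between genes and changed sign with the pseudocount or without the more proximal of the largest clusters. Within the KRAB class the medians above 0 were 30.7 on chromosome 19 and 44.2 elsewhere, whereas the mean over all genes of the class, those at 0 included, was higher on chromosome 19 by 0.18 on the log2 scale, a comparison added once the values were known. Of the other 292 protein-coding genes listed there, 59.9% were above 0 and 29.8% among the 3000. Of the listed protein-coding genes of chromosome 19, 27.0% were ZNF genes, followed by 6.74% on chromosome 7. The 23 ZNF genes of chromosome 7 had a median of 53.9, from 0 to 129.7 (ZNF3), and the 13 of chromosome 3 a median of 36.9, from 0 to 109.6 (ZNF654).

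The list holds genes selected for spacing, and so part of the family. The GENCODE 44 annotation holds 509 protein-coding ZNF genes, and 43.2% of them were listed, 43.9% on chromosome 19 and 42.6% elsewhere, compared with 29.8% of the other protein-coding genes. Of the 289 that were not listed, 286 (99.0%) had another annotated gene within 2 kb, whereas 144 of the 220 listed ones (65.5%) did.

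ZNF genes covered a narrow range of lengths. Their median GeneLength was 21454 bp (interquartile range 13493 to 30342 bp), beside 23122 bp (10027 to 53283 bp) for other protein-coding genes, and 180 of them (81.8%) were between 10 and 50 kb long, compared with 48.2%. At least 50 kb was reached by 13 (5.91%), compared with 26.8%. The medians on chromosome 19 and elsewhere were 22483 bp and 20613 bp, but the longest gene on chromosome 19 was ZNF431, at 54014 bp, whereas 11 genes elsewhere reached 50 kb. Only 1 of the 149 KRAB genes did so. Length was hardly related to density across the 220 genes, with Spearman's rho of 0.092 and Pearson's r of 0.068 between the logarithms, and genes of one cluster share their origin. Among genes of 10 to 50 kb only, the shares above 0 were 89.4% of 180 ZNF genes and 72.3% of 2795 other protein-coding genes.

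All 5 ZNF genes of at least 100 kb were among the 3000, as were 54.9% of 652 other protein-coding genes of this length. None of the 5 has a KRAB domain by the pattern. ZNF644 (106732 bp) was at 173.9, ZNF618 (180285 bp) at 69.7, ZNF804A (340964 bp), a gene of the brain known from psychiatric genetics, at 39.2, ZNF438 (187234 bp) at 37.2 and ZNF148 (149657 bp), also known as ZBP-89, at 36.9. At the other end, ZNF784 (3826 bp) was at 8.93, ZNF579 (4075 bp) at 23.1, ZNF703 (4238 bp) at 89.6, ZNF669 (4395 bp) at 85.0 and ZNF414 (4490 bp) at 24.9. The densities of the longest and shortest genes overlapped.

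The gene structure differed more than the length. Canonical transcripts of ZNF genes had a median of 5 exons, compared with 7 in other protein-coding genes, and the last exon took up 3066 bp, or 87.3% of the exonic length, compared with 1505 bp and 55.9%. It is known that this exon usually encodes the whole array of fingers. Counted in the translated proteins, the median was 11 fingers, 12.5 on chromosome 19 and 8 elsewhere. The KRAB pattern was found in 149 ZNF proteins, 96 of them on chromosome 19, and in 9 of the 5817 other listed protein-coding genes. The SCAN pattern was found in 11 ZNF proteins, 3 of which match both patterns. KRAB and SCAN genes are named here by these patterns alone. How many domains the patterns miss was not measured, so genes without a match can still encode such a domain.

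Densities of these classes overlapped. The shares among the 3000 were 69.1% with and 69.0% without the KRAB pattern, and the medians above 0 were 33.3 (133 genes) and 41.7 (66 genes). All 11 SCAN genes were above 0, from 10.4 (ZNF215) to 290.4 (ZNF24), with a median of 51.1. Across the 220 genes the number of fingers and the density had a Spearman's rho of -0.047 and a Pearson's r of -0.022. ZNF91, with 31 fingers, was at 118.6, whereas ZNF729, with 34, and ZNF99, with 21, were listed at 0. Of the 5 genes without a match to the C2H2 finger pattern, ZNF330, ZNF703 and ZNF365 were among the 3000, the LIM domain gene ZNF185 was at 0.477 and ZNF750 at 0.

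With a gap of at most 250 kb between listed neighbours, 116 of the 220 ZNF genes stood in 17 clusters of 3 or more. On chromosome 19 these were 83 of the 108 (76.9%), and elsewhere 33 of the 112 (29.5%). Clustered genes were above 0 in 92.2% and among the 3000 in 72.4%, the other 104 in 88.5% and 65.4%. The clusters themselves differed. Of the pair with 17 listed genes each, the cluster on chromosome 19 from 57191500 to 58457833 had 17 of 17 above 0 and 15 among the 3000, with a median of 54.4 and a range from 11.1 (ZNF324B) to 238.8 (ZNF264). The cluster from 52369923 to 53580269 had a median of 15.5, with 9 of 17 among the 3000 and a range from 0 (ZNF534) to 67.2 (ZNF761). The cluster of 11 genes from 11597483 to 12365683 ranged from 0.13 (ZNF878) to 121.2 (ZNF627), with a median of 25.6, and that of 10 genes from 43827321 to 44500522 from 9.06 (ZNF404) to 144.9 (ZNF226), with a median of 32.1.

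In a further cluster, every listed gene was at or near 0. Of the 4 listed genes between 21804946 and 22317176 on chromosome 19, ZNF257 and ZNF729 were at 0, ZNF676 at 0.173 and ZNF43 at 0.52, whereas the 4 genes of the cluster just before it, from 21142040 to 21540668, were at 191.5 (ZNF431), 105.3 (ZNF708), 31.9 (ZNF738) and 12.1 (ZNF429). The next cluster, from 22752183 to 23395471, was divided: ZNF99 and ZNF728 at its start were at 0, followed by ZNF730 (21.9), ZNF724 (35.2) and ZNF91 (118.6). On chromosome 7, from 64045434 to 64930981, ZNF727, ZNF735 and ZNF679 were listed at 0 and the 4 genes that follow were at 62.0 (ZNF736), 88.5 (ZNF680), 100.7 (ZNF138) and 65.9 (ZNF273). The second cluster of chromosome 7, from 149069641 to 149497809, was even, with 6 genes from 36.1 (ZNF777) to 88.8 (ZNF282).

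Neighbours in the list were alike only in part. Unlisted ZNF genes can lie between them: the cluster from 57191500, with 17 listed genes, spans 41 annotated ones. Among 114 pairs of ZNF genes adjacent in the list, with a gap of at most 250 kb, 75 (65.8%) were on the same strand. The absolute difference in log2(density + 1) had a median of 1.10, 30 pairs (26.3%) differed by at least 4-fold on this scale and in 11 pairs 1 gene was at 0 and the other was not. Spearman's rho between neighbours was 0.44 and Pearson's r 0.51 on the log2 scale, over pairs that share genes, position and base composition. ZNF585A and ZNF585B, which both encode 769 amino acids with 21 fingers and are 8883 bp apart, were at 25.9 and 1.99. ZNF415 (0.433) lies between ZNF160 (47.8) and ZNF347 (15.5), 4456 and 2024 bp away, all on the minus strand. ZNF24 and ZNF396, 22273 bp apart, were at 290.4 and 14.1.

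Shared sequence limits how well such copies can be told apart. The median ZNF gene had 4.68% of the 50-base windows of its first 3 kb also elsewhere in the genome, 6.56% on chromosome 19 and 2.71% elsewhere, and 50 genes had more than 10%. The highest share was 69.0% for ZNF658 (density 64.9), followed by ZNF124 with 65.7% (44.2), ZNF705G with 57.9% (0.173) and ZNF705B with 57.5% (0). Without the 50 genes the median above 0 was 39.0 instead of 36.1. Another annotated gene lies on the opposite strand in the first 3 kb of 27 ZNF genes (12.3%, compared with 11.0% of other protein-coding genes). Their median was 39.2, and that of the other 193 was 31.3. By the study's methods the BrU-seq reads kept their strand and the densities were made with default settings of HOMER, whereas stranded counts were stated for the profiles. The methods do not name a strand option for the densities. Reads from the opposite strand can therefore be part of the densities of these 27 genes, ZNF146 among them.

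Promoters were taken as the 300 bases around the listed start site (250 before and 50 after). In 102 of the 220 ZNF genes this site was the annotated gene start or the first base of the canonical transcript, and in the others it was neither. ZNF promoters had a median of 21 CpG dinucleotides, as did other protein-coding promoters, but few were CpG-poor: 21 (9.55%) had fewer than 10 CpG, compared with 30.4%. Of these 21 genes, 12 (57.1%) were above 0 and 4 among the 3000, compared with 41.8% and 8.31% of the other protein-coding genes with fewer than 10 CpG. With 10 to 19 CpG, 71.2% of 73 ZNF genes were among the 3000, compared with 44.9% of 926 other protein-coding genes, with 20 to 29 CpG 74.1% compared with 66.9%, and with 30 or more 80.0% compared with 64.2%. The median densities, genes at 0 included, did not follow this order in every bin. They were 33.1 for ZNF genes and 5.61 for other protein-coding genes with 10 to 19 CpG, 30.98 and 44.29 with 20 to 29, and 39.4 and 34.4 with 30 or more. In genes with 10 or more CpG on both sides, also a comparison added once the values were known, the mean difference from other protein-coding genes fell from 1.29 to 0.58 on the log2(density + 1) scale. The highest ZNF gene and a gene listed at 0 with no CpG are shown as examples, on hg38 in the direction of transcription, with CG in capitals. ZNF24 has 26 CpG and a GC content of 62.3%, ZNF679 has 0 and 48.0%.
ZNF24, chr18:35344371-35344670, minus strand: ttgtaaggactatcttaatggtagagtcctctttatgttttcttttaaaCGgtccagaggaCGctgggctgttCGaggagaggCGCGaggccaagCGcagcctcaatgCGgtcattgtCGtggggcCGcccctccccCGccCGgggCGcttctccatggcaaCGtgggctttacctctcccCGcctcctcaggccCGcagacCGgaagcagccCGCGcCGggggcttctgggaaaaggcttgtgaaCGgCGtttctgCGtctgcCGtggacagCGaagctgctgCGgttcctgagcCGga
ZNF679, chr7:64228224-64228523, plus strand: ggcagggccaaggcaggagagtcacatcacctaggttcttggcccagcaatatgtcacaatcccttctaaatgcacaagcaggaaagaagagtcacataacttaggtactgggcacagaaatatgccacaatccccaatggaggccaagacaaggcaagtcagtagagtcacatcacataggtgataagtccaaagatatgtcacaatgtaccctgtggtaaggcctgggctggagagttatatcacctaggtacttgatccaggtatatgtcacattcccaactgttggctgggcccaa

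Short motifs were searched on both strands of these windows. The core of ETS family sites, CGGAAG, was found in 51.8% of ZNF promoters (60.2% on chromosome 19 and 43.8% elsewhere), in 21.1% of other protein-coding promoters and in 17.2% of all listed promoters. CCAAT was found in 48.2%, 36.2% and 37.6%, and in 57.7% of ZNF promoters of the KRAB class. For the GC box GGGCGG the shares were 65.0%, 58.4% and 42.7%, and for the TATA box TATAAA 4.55%, 11.0% and 13.4%. GCCAT, the core of YY1 sites, was found in 31.8%, 35.3% and 37.8%, TGACG, the core of CRE sites, in 31.4%, 27.9% and 23.0%, and GCATGCG, a core of NRF1 sites, in 4.55%, 4.64% and 3.53%. Among promoters with 10 or more CpG, CGGAAG was found in 53.3% of ZNF and 27.9% of other protein-coding promoters, and CCAAT in 45.2% and 34.3%. The order was the other way for GGGCGG (68.8% and 77.9%), TGACG (33.2% and 34.6%) and GCATGCG (5.03% and 6.34%). TATAAA (3.02% and 5.36%) and GCCAT (30.7% and 34.6%) remained lower in ZNF promoters. CGGAAG was found in 54.3% of the 199 ZNF promoters of genes above 0 and in 28.6% of the 21 at 0 (6 genes). The other protein-coding promoters showed the same order, with 26.4% above 0 and 9.24% at 0. Fewer than 10 CpG were found in 6.03% of the ZNF promoters above 0 and in 42.9% of those at 0. A match describes letters, not a bound site.

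Many ZNF promoters also had longer stretches in common. The 10-base word found on the sense strand of the most ZNF promoters was TCCAATCAGG, chosen by this count and therefore described without a test. It overlaps the CCAAT motif. It was found in 35 ZNF promoters (15.9%), 25 of them on chromosome 19, 6 on chromosome 7 and 4 elsewhere, and in 8 of 5817 other protein-coding promoters (0.138%) or 48 of all 9538 listed promoters (0.503%). In 32 of the 35 it starts within 100 bases before the start site, 15 have it more than once, and 33 belong to the KRAB class. Genes with the word ranged from 0 to 191.5 with a median of 30.5, and 28 of 35 (80.0%) were above 0. The other ZNF genes ranged from 0 to 290.4 with a median of 32.1, and 171 of 185 (92.4%) were above 0. For 10 of them, 100 bases around the word are shown in the direction of transcription, on hg38, with the word in capitals. The first 5 are the members of the divided cluster, from 118.6 (ZNF91), 35.2 (ZNF724) and 21.9 (ZNF730) to 0 (ZNF99 and ZNF728). They are followed by ZNF431 (191.5), ZNF43 (0.52) and ZNF729 (0) of the clusters before it and by ZNF680 (88.5) and ZNF138 (100.7) of chromosome 7.
ZNF91, chr19:23395476-23395575, minus strand: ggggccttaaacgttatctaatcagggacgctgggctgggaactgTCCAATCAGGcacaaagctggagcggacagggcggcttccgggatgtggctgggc
ZNF724, chr19:23250422-23250521, minus strand: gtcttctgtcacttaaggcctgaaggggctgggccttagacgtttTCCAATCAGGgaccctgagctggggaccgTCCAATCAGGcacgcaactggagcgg
ZNF730, chr19:23116927-23117026, plus strand: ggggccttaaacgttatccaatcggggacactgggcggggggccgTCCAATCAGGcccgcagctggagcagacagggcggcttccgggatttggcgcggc
ZNF99, chr19:22784179-22784278, minus strand: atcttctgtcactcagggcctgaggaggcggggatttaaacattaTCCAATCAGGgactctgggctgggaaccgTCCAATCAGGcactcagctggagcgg
ZNF728, chr19:23003206-23003305, minus strand: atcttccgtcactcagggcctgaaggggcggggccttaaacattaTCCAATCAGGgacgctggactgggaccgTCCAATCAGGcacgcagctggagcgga
ZNF431, chr19:21141936-21142035, plus strand: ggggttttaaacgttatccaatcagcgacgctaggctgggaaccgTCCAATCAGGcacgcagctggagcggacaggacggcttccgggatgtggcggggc
ZNF43, chr19:21836216-21836315, minus strand: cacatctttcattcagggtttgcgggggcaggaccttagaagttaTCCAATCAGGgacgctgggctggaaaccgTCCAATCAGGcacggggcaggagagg
ZNF729, chr19:22286292-22286391, plus strand: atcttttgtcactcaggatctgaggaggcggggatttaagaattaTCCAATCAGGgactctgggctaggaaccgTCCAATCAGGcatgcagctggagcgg
ZNF680, chr7:64563105-64563204, minus strand: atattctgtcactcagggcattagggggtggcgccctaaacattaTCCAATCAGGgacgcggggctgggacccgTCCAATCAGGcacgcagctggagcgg
ZNF138, chr7:64794295-64794394, plus strand: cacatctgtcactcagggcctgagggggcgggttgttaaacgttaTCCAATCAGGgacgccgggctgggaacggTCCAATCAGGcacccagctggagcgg
Genes listed at 0 and genes above 100 both had the word.

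TT dinucleotides, at which UV-C forms many of its pyrimidine dimers, were counted on the transcribed strand. ZNF genes had a median of 79.0 TT per kb, 78.0 on chromosome 19 and 79.7 elsewhere, beside 80.8 in other protein-coding genes, and the 21 genes at 0 had 87.0. In the first 3 kb the median was 70.2 per kb, and all dipyrimidines together came to 267.1 per kb over the whole gene. Lesions and the response of ZNF genes to UV were not analysed here.

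Genes that act with ZNF proteins were compared by lists chosen for their roles. For comparison, 45.7% of the listed protein-coding genes and 31.6% of all listed genes with a value were among the 3000. Of 30 partners of KRAB repression, only 4 were listed, too few to describe the partners, and all 4 were among the 3000. They were the chromatin remodeller ATRX (72.2), the DNA methyltransferases DNMT1 (51.6) and DNMT3B (16.6), and TRIM24, a relative of TRIM28 (30.0). Of 12 other families of C2H2 genes, 68 genes were listed, 51 of them above 0 and 35 (51.5%) among the 3000, with a median of 19.6. By family, 12 of 13 ZBTB genes, whose BTB domain binds corepressors, and 4 of 4 ZKSCAN genes were among the 3000, with medians of 79.4 and 109.7. The shares were 6 of 11 for KLF, 6 of 12 for ZSCAN, 5 of 10 for ZFP, 1 of 3 for SP and 1 of 2 for EGR. None of the 6 PRDM, 4 ZIC, 2 IKZF and 1 SALL genes was among the 3000, and no GLI gene was listed. Of 9 genes that mark epithelial and mesenchymal lines, only COL1A1 was listed, at 25.8.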

How the data were processed

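ChIP-seq libraries of ubH2B (2 mock, 2 at 3 h, 4 at 24 h and 1 input) carry no value in the list, so no library entered a comparison, and 0 per-sample columns were left aside. The BrU density is a score that the authors deposited, the BrU-seq read density of the first 3 kb in unirradiated WT cells. Per their methods and processing notes, reads were trimmed with Trim Galore 0.6.5, aligned to GRCh38.p14 with STAR, where reads with up to 20 alignments were kept by their primary alignment, and counted with HOMER 4.8.2. Genes came from UCSC knownCanonical and were selected for spacing and size. Multiply aligned reads can move density between copies of a gene.

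Values within 1e-06 of 0 were taken as 0. Symbols, exons and coding sequences came from GENCODE 44, whose chromosome and strand matched every listed ZNF gene, and sequence from an hg38 copy, read by the listed start sites. Proteins were translated from canonical transcripts. Fingers were counted as 2 cysteines and 2 histidines at C2H2 spacing, and the KRAB and SCAN patterns were set after the proteins were seen. Counters made 0 errors in 200 simulated sequences each. Python 3.11.15, numpy 2.4.6, pandas 2.3.3 and scipy 1.17.1 were used.

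Named were the 10 highest, 5 longest and 5 shortest ZNF genes, 3 on each side of the limit of 3000, the highest of the 3 largest clusters and 41 genes of known function where listed. C2H2 families were taken by symbol, without genes of the SP100 group. Genes listed at 0, neighbour pairs, other clusters, genes with much shared sequence and the printed promoters were chosen after their values were seen. The members and all lists were chosen with earlier results of these data known.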

Additional observations from a re-analysis of the deposited data

How the results depend on the processing

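The 10 results were recomputed with 38 other settings, and 6 of these settings were chosen after seeing the data. Of these, 22 stayed within the binomial interval of the share or within 1.5 times the value, 13 moved further and 3 changed sign. The share of ZNF genes above 0 (90.5%) became 83.6% and 80.5% with thresholds of 1 and 5, and the share among the 3000 (69.1%) became 53.6% and 80.0% with 2500 and 3500 genes, by construction. The mean log2 difference from other protein-coding genes (1.29) was 2.08 and 0.50 with pseudocounts of 0.1 and 10, 0.36 for genes above 0 and 0.58 with 10 or more promoter CpG, and stayed positive throughout. The difference of chromosome 19 from elsewhere (-0.086) turned to 0.059 with a pseudocount of 0.1, to 0.06 without the proximal of the largest clusters and to 0.18 within the KRAB class. It was -0.14 with a pseudocount of 10, -0.32 for genes above 0, -0.34 without the distal of these clusters and -0.20 without genes with over 10% of shared windows, and the cause was not tested. TT per kb (79.0) became 267.1 with all dipyrimidines, by construction. No paired analysis was possible because the list holds no value of the ChIP-seq libraries and no replicate of the BrU density. The depth behind the BrU density is unknown and limits which genes are listed at 0.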
